A study of Mus musculus with 3 samples.

Results

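This account describes the annotated mouse genes that lie inside a gene of the other strand without touching its exons, as counted in total RNA-seq of primary cells labelled T-helper 1. A feature was taken when its merged exons spanned 200 or more bases, it was off chromosomes X, Y and M, its whole span lay within the span of a gene on the other strand, and its exons shared no base with exons of any other-strand gene. The rule used coordinates only and no count. It found 3028 of 50600 annotated features (5.98%), lying in 2188 host genes. The host of a feature is the other-strand gene that contains it, and where several did, the host with the longest exonic length was used.

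The samples were primary cells of mouse strain C57BL/6NJ labelled as T-helper 1, a helper subset of CD4 T cells known for interferon gamma, in a single group of 3 libraries. Markers went against this label, as given below. Labels numbered the libraries as biological replicates 1, 2 and 3, each with its own biosample and all with the same donor identifier, with age unknown and sex not collected. No treatment was labelled beyond a link to a CD4 T cell differentiation protocol, and the counting commands carried the name 0 hours. The RNA was labelled as total RNA, while the linked library protocol is named for poly(A)+ RNA. With the same donor identifier, the spread between these libraries may be technical. Values below follow the order of replicates 1, 2 and 3.

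Genes can lie inside the introns of other genes in either orientation. A host transcript is copied whole and its introns are then spliced out, so a nested gene on the other strand is not part of the host RNA, and its own RNA is complementary to the host's intron. Strand-specific counting is what separates the genes of such a pair. Annotated antisense genes and intergenic noncoding RNAs are often spliced and polyadenylated like messenger RNAs, whereas a processed pseudogene is a copy of a messenger RNA that was reverse transcribed and inserted into the genome, usually without exons and introns of its own. TEC marks a transcribed region that still awaits experimental study.

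The 3028 features were mostly noncoding. Processed pseudogenes numbered 1150, antisense genes 658, protein-coding genes 461, TEC 274 and long intergenic noncoding RNAs 195. Grouped more broadly, 1290 were pseudogenes of any kind, 1178 long noncoding genes, 461 protein coding and 99 others. Their median exonic length was 749 bases, and 1640 had a single exon. A single host intron held 2799 of them whole, and 845 of these lay in the first host intron. The remaining 229 spanned a host exon that lay within an intron of the feature. The introns that held a feature whole had a median length of 32.2 kb.

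The following 6 were among the most counted long noncoding features of this kind with equal exons in GENCODE M21. The last 100 bases of the spliced transcript of each are shown because they are where a polyadenylated RNA would end. They were read 5′ to 3′ from the GENCODE M21 transcripts, and capitals mark every AATAAA, the common polyadenylation signal, also where copies overlap. Gm43980 is a TEC in an intron of Tra2a, at chr6:49254851-49256462 (mm10, plus strand). 1700058P15Rik is an antisense gene in Vasp, at chr7:19258492-19259739 (plus strand). Gm28370 lies in Gm20498 at chr12:81492199-81497015 (plus strand), Gm16185 in Slc25a36 at chr9:97085326-97088610 (plus strand), Gm26789 in Herc4 at chr10:63292286-63295793 (minus strand) and Gm12000 in Ikzf1 at chr11:11695133-11696439 (minus strand).
Gm43980: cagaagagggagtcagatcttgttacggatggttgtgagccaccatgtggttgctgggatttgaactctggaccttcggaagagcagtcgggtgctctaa
1700058P15Rik: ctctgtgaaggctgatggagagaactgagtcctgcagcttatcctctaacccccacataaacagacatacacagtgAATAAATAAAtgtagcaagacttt
Gm28370: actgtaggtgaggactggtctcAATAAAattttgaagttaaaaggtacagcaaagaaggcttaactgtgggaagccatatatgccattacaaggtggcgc
Gm16185: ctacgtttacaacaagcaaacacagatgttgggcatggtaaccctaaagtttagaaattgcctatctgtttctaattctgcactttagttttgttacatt
Gm26789: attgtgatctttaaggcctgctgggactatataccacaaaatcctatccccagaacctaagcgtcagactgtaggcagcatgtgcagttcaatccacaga
Gm12000: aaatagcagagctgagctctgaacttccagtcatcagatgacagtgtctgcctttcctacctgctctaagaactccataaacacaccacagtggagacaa

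Of these ends, only that of 1700058P15Rik held AATAAA within its last 50 bases. Among the long noncoding intronic features with a usable M21 sequence, 31.1% held it there, against 30.5% of all autosomal long noncoding features of 200 or more bases. The share was 31.8% in the features of 60 or more counts and 31.3% in those with no count, a similar share in counted and uncounted features. Only 2.47% of the intronic pseudogenes held it. A run of 10 or more A on the transcript strand was found in 22.4% of the long noncoding intronic features of 60 or more counts, in 7% of those with no count, and in 11.8% of all long noncoding features. The counted features were also longer, with a median of 1189 bases against 772 in the uncounted ones. The matching run of T, which is the same search on the other strand, was found in 12.1%, 8.29% and 13.2%.

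The libraries held 3647366, 4305077 and 2510319 counts. Cd4 had 1849, 2807 and 662 counts, while Tbx21 (T-bet, the Th1 master regulator) and Ifng each had 1, 3 and 0. Tcf7 and Ccr7, which naive T cells express, had 2898, 4967 and 1197 and 690, 1296 and 263. So the libraries held CD4 T cell markers, but the defining Th1 genes were at or near 0, against the label. Igkc of B cells had no count and the myeloid gene Lyz2 had 0, 1 and 0, while the summed B cell list had 947, 1446 and 316 counts (5 of 11 genes at 0) and the myeloid list 772, 669 and 730 (5 of 10 at 0). Cd8a had 0, 1 and 0. A scale factor between libraries depended on the method: on the log2 scale, replicate 3 stood at -0.78 to replicate 2 by total counts, at -1.55 by TMM (the trimmed mean of M-values) and at -1.58 by DESeq2 size factors. For this reason most values below are raw counts, or ratios taken within a library that need no scale factor. Each fragment was counted by the strand of its first read, and the library kit was not given in the sources used here, so whether a count stands for RNA of the feature's strand or of the host's strand cannot be told apart.

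The intronic features took a small and similar share of each library, with 48421, 50827 and 30307 counts, or 1.33%, 1.18% and 1.21% of all counts. At least 1 count in every library was found for 726 features (24.0%), against 33.4% of all autosomal features of 200 or more bases. No count in any library was found for 1722 (56.9%), where a total of 0 allows up to 3 counts over the libraries. Only 285 (9.41%) reached 60 counts over the libraries, against 25.2% of all such features. The counts were concentrated, with 36.5% of them on 20 features, 15 of which were protein coding.

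Detection differed by kind of feature. A count in all libraries was found for 186 of 461 protein-coding features (40.3%), for 265 of 1178 long noncoding features (22.5%) and for 260 of 1290 pseudogenes (20.2%). Among long noncoding features, 23.2% of single-exon and 22.2% of multi-exon ones were counted in all libraries. The single-exon ones were longer, with a median of 1383 bases against 746. Their pooled level was lower, at 8.27, 5.72 and 6.21 counts per kb against 11.9, 8.04 and 8.34. Among pseudogenes, 20.5% of single-exon and 17.6% of multi-exon ones were counted in all libraries. TEC, antisense genes and long intergenic noncoding RNAs stood at 22.3%, 23.9% and 19.0%.

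Detection was more frequent where the host itself was more counted. Among the long noncoding features, 93.9% had no count when the host had none, 67.9% when the host had 1 to 59 counts, 17.7% when it had 60 or more but under 600 and 15.4% when it had at least 600. Their pooled level was 0.487, 0.433 and 0.423 counts per kb of exon in hosts with no count, and 45.8, 27.7 and 31.8 in hosts of at least 600 counts. The step was in the same direction in each library. These are descriptions over features, with no test.

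**Figure D1:**
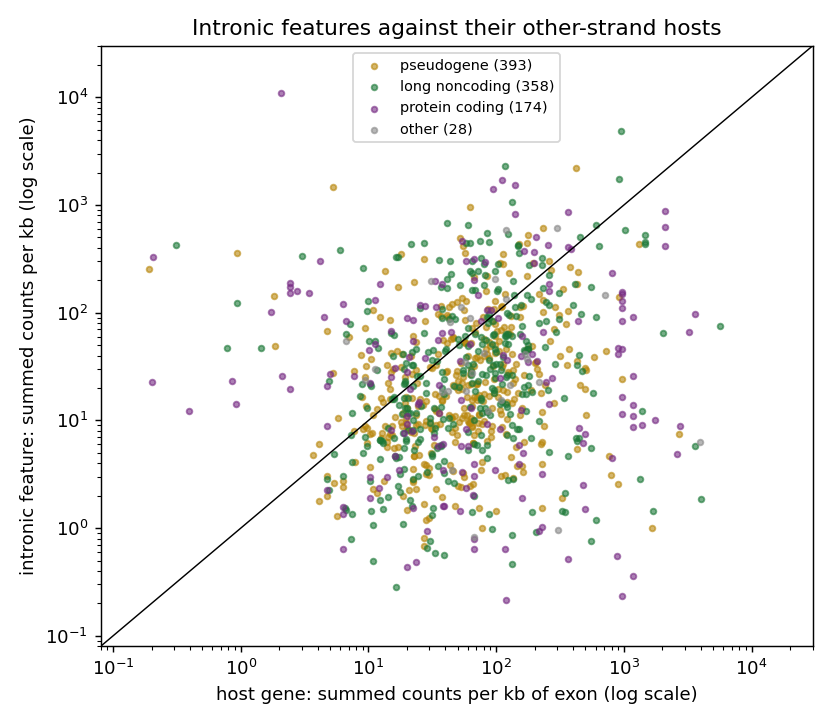
Summed raw counts per kb of exon over the 3 libraries for the intronic feature (vertical, log scale) and its host (horizontal, log scale), for the 953 pairs with 60 or more counts over both genes and at least 1 on each; the line marks equal levels. The points spread over several orders of magnitude on both sides of the line, with more of them below it, and over the 608 pairs with counts on both genes in all libraries Spearman's rho was 0.26.

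Feature and host were then compared per base of exon within each library. This comparison used the 1174 pairs, in 899 hosts, with 60 or more counts over both genes. The feature was the higher of the pair in 369, 224 and 412 pairs, or 31.4%, 19.1% and 35.1%. It was higher in all libraries in 209 pairs (17.8%, against 26.3% when features nested in other-strand exons are added to the pairs) and lower in all in 695 (59.2%, against 52.9%). The other 270 pairs changed order between libraries or were tied. In 182 pairs the feature had no count at all, and in 39 the host had none.

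Over the 608 pairs with counts on both genes in every library, the median ratio of feature to host was 0.850, 0.344 and 1.22. On the log2 scale the medians averaged -0.50 ± 0.94 (SD, n = 3 libraries), which an exact two-sided sign-flip test over the libraries did not separate from 0 (p = 0.75, where 0.25 is the smallest p that 3 libraries allow). Without replicate 2 the mean was 0.025, so the sign turned. Replicate 2 was the library with the lowest ratio in 455 of the 608 pairs, and the ratio was higher in replicate 3 than in replicate 2 in 495 (81.4%).

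Several noncoding features were well above the gene that contains them. Gm43980 had 1418, 1031 and 1265 counts over 1612 bases, while its host Tra2a, which encodes a splicing regulator, had 311, 411 and 99 over 6945 bases. Per base the feature was 19.6-, 10.8- and 55.1-fold the host, and 19.5-fold over the summed counts (95% Clopper-Pearson interval 18.1 to 21.05). So Gm43980 was above Tra2a per base in every library, as were the features of 17.8% of the intronic pairs and 26.3% of all nested pairs. The features of this paragraph are among the 20 most counted, a choice that favours a high ratio. 1700058P15Rik had 683, 585 and 760 counts on 413 bases, which is 1654, 1416 and 1840 counts per kb against 301, 486 and 167 for Vasp, a regulator of actin assembly. Its exons lie in introns of Vasp, and 4 exons of Vasp lie between them. Gm16185 had 551, 480 and 385 counts against 95, 160 and 8 on Slc25a36, a mitochondrial carrier, and was 16.1-fold higher per base over the libraries (14.1 to 18.4). Gm28370 had 464, 427 and 543 counts in a host, Gm20498, that had 0, 1 and 0. Its summed ratio of 1377 rests on that single host count, with an interval from 247 to 54429.

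The protein-coding features with the highest ratios lay in hosts with almost no counts. B2m, the light chain of MHC class I molecules, had 3205, 5137 and 1049 counts, and its host Patl2 had 0, 0 and 5. The summed ratio was 5316 (2277 to 16375). Ly9, a receptor of the SLAM family, had 384, 586 and 126 counts inside Cd244a, another gene of that family, which had 1, 0 and 0. Mvd, an enzyme of the mevalonate pathway, had 313, 378 and 295 counts, and Cyba, a subunit of the NADPH oxidase, had 242, 355 and 109. Both lie in Gm20388, a gene model with an intron of 4384418 bases that held 37 intronic features and had no count in any library. Set against a floor of 3 host counts over the libraries, Mvd was at least 699-fold and Cyba at least 895-fold higher per base than that host. Krcc1 in Smyd1, with 125 exonic bases shared with a same-strand gene, was at least 660-fold higher, and the noncoding 2810455O05Rik, also in Gm20388, at least 295-fold. Gigyf1, with 501, 688 and 344 counts in the erythropoietin gene Epo, was at least 79.4-fold higher. The pseudogene Gm37313 had 24, 19 and 31 counts against 1, 0 and 0 on Catspere2.

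At the other end were features with almost no count in hosts that were themselves noncoding and well counted. 4933412L11Rik, a TEC, had no count while its antisense host Gm5577 had 1575, 1264 and 1694, so the host was at least 751-fold higher per base. Gm37150 had none against 1117, 959 and 1135 on BC065403, at least 1579-fold. Gm43387 had 2, 0 and 0 counts against 1995, 1725 and 1993 on Gm15886. The protein-coding Tmem265 had none against 1864, 1477 and 1805 on Gm28198, but all of its 1263 exonic bases are shared with a gene of its own strand, so its level is uncertain. Of the 10 features with the lowest ratios, Gm11953 was the single one with a protein-coding host, 4930556J24Rik, which had 734, 663 and 616 counts against 0, 1 and 0. Oas1e, Gm43661, Gm20683, Nhlrc4 and Ptk7 also had at most 1 count over the libraries, and 2710 of 2790 exonic bases of Gm20683 and 270 of 2318 of Nhlrc4 are shared with a same-strand gene.

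The libraries were compared next. A Poisson chi-square test of equal scaled counts, with TMM sizes and Benjamini-Hochberg adjustment over 10662 features at 0.05, kept 306 intronic features and called 241 of them (78.8%, against 62.4% of all features tested). With total counts as sizes 232 were called (75.8%), against 82.5% of all features, so whether the intronic features were called more or less often than the rest turned with the scaling. The test compares these libraries against counting error alone. With a negative binomial model at the common dispersion estimated over all features, 25 were called (8.17%, against 3.79% of all). Of the 241, replicate 3 was above replicate 2 in 197 (81.7%) with TMM or DESeq2 sizes, against 53.2% and 53.3% of all called features, and in 187 (77.6%) with total counts, against 47.1%.

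In raw counts, the intronic features fell into 2 ranges of the ratio of replicate 3 to replicate 2. This ratio was not scaled for depth, and the log2 ratio of the total counts was -0.78. Among the 285 features of 60 or more counts the median log2 ratio was -0.26, with quartiles of -1.71 and 0.36. Below -1.5 lay 83 features, from -1.5 to -0.5 lay 35, and at or above -0.5 lay 167. The ratio was above 1 in 113 (39.6%), against 16.2% of all 10137 autosomal features of 60 or more counts. Kinds of feature sat in different ranges: the median was 0.20 in 110 long noncoding features, 0.01 in 51 pseudogenes and -1.73 in 120 protein-coding features. All 10137 features had a median of -1.73, equal to that of the protein-coding ones.

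**Figure D2:**
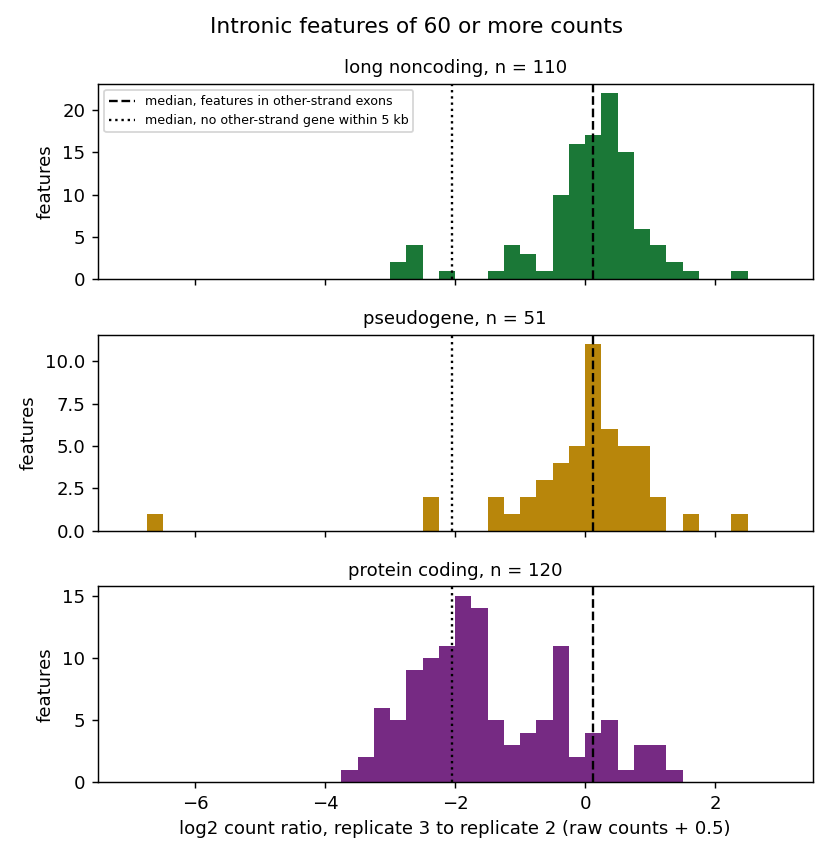
Number of intronic features of 60 or more counts (vertical) by log2 ratio of raw counts, replicate 3 to replicate 2 (horizontal, bins of 0.25), for long noncoding, pseudogene and protein-coding features; the dashed line is the median of features nested in other-strand exons (0.12) and the dotted line that of features with no other-strand gene within 5 kb (-2.05). Most long noncoding features and pseudogenes gather near the dashed line, and most protein-coding ones near the dotted line.

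Exceptions were present in every kind, and those in this paragraph were chosen after their values were seen. The antisense gene Pitpnm2os2 had 62, 6 and 34 counts, a log2 ratio of 2.41, while its host Pitpnm2 had 352, 502 and 132. The processed pseudogene Gm9493 had 47, 53 and 0 counts, the lowest log2 ratio of all at -6.74. Inside Ripor2 the long intergenic noncoding RNA C530050E15Rik had 320, 63 and 69 counts and the transcribed pseudogene Gm11346 had 294, 468 and 88, with log2 ratios of 0.13 and -2.40. So features of a single host did not always follow each other. Ripor2 itself had 1065, 1715 and 270.

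A feature and its host sit in the same libraries, so the share of a pair's counts that falls on the feature needs no scaling between libraries. This share was tested by a chi-square test on the counts of both genes in the 3 libraries, with Benjamini-Hochberg adjustment over all 484 nested pairs with expected counts of 5 or more. It too sets the libraries against counting error alone, so its small p-values say nothing of variation between biological replicates. Of these pairs 328 had an intronic feature, and the share differed between libraries in 246 of them (75%, against 79.5% of all nested pairs tested). The largest share was in replicate 1 in 41, in replicate 2 in 38 and in replicate 3 in 167, where the same directions among all nested pairs took 8.68%, 9.3% and 61.6% of those tested.

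Among called pairs, the library with the largest share differed between protein-coding and long noncoding hosts. For comparison, 79.5% of all nested pairs tested were called. With the largest share in replicate 3 it was 61.6%, and with it in replicate 2 it was 9.3%. In protein-coding hosts 213 of 277 pairs were called, and 163 had the largest share in replicate 3. In long noncoding hosts 32 of 50 were called, and 28 had it in replicate 2. So pairs in protein-coding hosts were near the shares of all nested pairs, both for calls and for calls with replicate 3 highest. Long noncoding hosts departed from them, with more pairs highest in replicate 2. Long noncoding features in protein-coding hosts were called in 109 of 136 pairs, 77 of them with the largest share in replicate 3, 30 in replicate 1 and 2 in replicate 2. Pseudogenes in protein-coding hosts were called in 55 of 79, 52 of them in replicate 3. Protein-coding features in long noncoding hosts were called in 25 of 34, 24 of them in replicate 2.

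**Figure D3:**
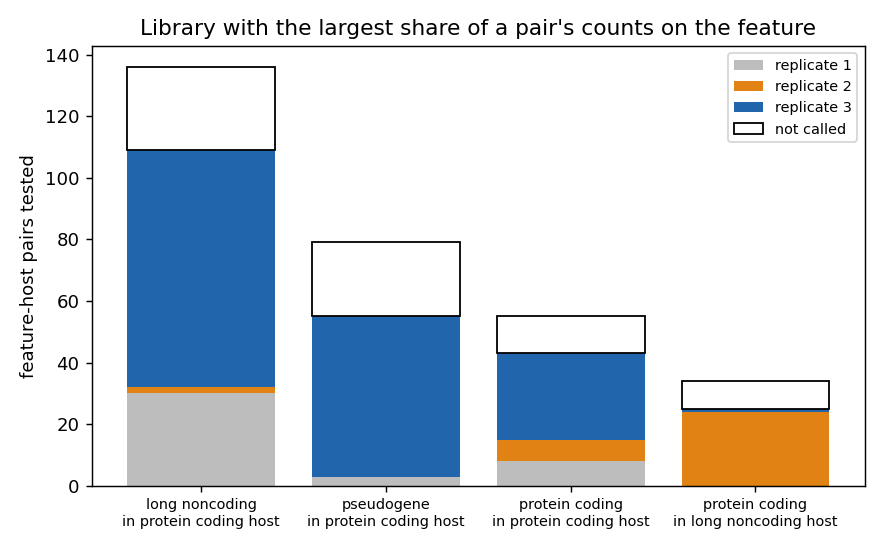
Feature-host pairs tested (vertical) by kind of feature and host, split by the library in which the feature took its largest share of the pair's counts, with uncalled pairs in white. Replicate 3 takes 77 of 109 and 52 of 55 called pairs in the left-hand bars (long noncoding features and pseudogenes in protein-coding hosts), and replicate 2 takes 24 of 25 in the right-hand bar (protein-coding features in long noncoding hosts). Of all nested pairs tested, 61.6% were called with the largest share in replicate 3 and 9.3% with it in replicate 2.

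In the 208 pairs with 60 or more counts on each gene, the median log2 ratio of replicate 3 to replicate 2 was 0.00 for the features and -1.81 for the hosts. The feature's ratio was above that of its host in 164. Across these pairs Spearman's rho between the ratios of feature and host was -0.29, a description over pairs that share the same 3 libraries.

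Genes of T cell identity were among the hosts. Of 25 listed genes, 5 held 8 intronic features, of which 6 had 60 or more counts. All 6 were tested and all 6 were called, 3 with the largest share in replicate 3. Of all nested pairs tested, 79.5% were called, and 61.6% were called with the largest share in replicate 3. Gm16364 is an antisense gene in the last intron of Fyn, a Src-family kinase of T cell receptor signalling. It had 266, 193 and 203 counts, against 640, 1055 and 276 on Fyn, so that it took 29.4%, 15.5% and 42.4% of the pair (chi-square, adjusted p = 1.63e-31). In raw counts, which carry the depth of each library, Gm16364 varied less than Fyn did. Scaled with TMM sizes, Gm16364 differed between libraries (Poisson chi-square, adjusted p = 2.53e-29). Which of them varied less after scaling was not tested. Gm27240, an antisense gene in Ets1, a transcription factor of lymphocytes, had 226, 70 and 97 counts against 2548, 5226 and 942. It was lowest where Ets1 was highest, and took 8.15%, 1.32% and 9.34% of the pair (chi-square, adjusted p = 1.45e-59). The pseudogene Gm18828 in the first intron of Zap70, the kinase that binds the phosphorylated receptor complex, had 99, 54 and 88 counts against 456, 660 and 201. Gm47834 in Themis had 15, 6 and 15, and Gm6963, a second feature of Fyn, had 6, 2 and 0, too few to test.

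Cd247, which encodes the zeta chain of the T cell receptor complex, held 3 features in its first intron of 66279 bases. Gm32999 had 139, 85 and 74 counts, Gm37856 173, 124 and 135, and Gm37469 179, 124 and 105. Each was lowest per base relative to Cd247 in replicate 2 and took its largest share in replicate 1. Cd247 itself had 2529, 3079 and 2216 counts, a log2 ratio of replicate 3 to replicate 2 of -0.47, against -1.71 for Zap70 and -1.93 for Fyn. Per base the features stood at 0.361, 0.295 and 0.312 of Cd247 over the summed counts, and their 95% intervals overlapped.

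Other lists gave fewer hosts. Of 12 genes of naive T cells, Ikzf1 alone held a feature. This was Gm12000, with 436, 272 and 400 counts in the second intron of a gene for a transcription factor of lymphoid development that had 1763, 2837 and 685. It took 19.8%, 8.75% and 36.9% of the pair, the smallest p of all pairs (chi-square, adjusted p = 2.01e-98). Per base it was above Ikzf1 in replicates 1 and 3, by 2.27- and 5.36-fold, and below it in replicate 2, at 0.881.

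Of 18 genes of the Th1 program, a few held an intronic feature. Gm3940 in Stat4, which acts downstream of interleukin 12, had 15, 9 and 8 counts. Gm16224 in the first intron of Runx3, a partner of T-bet, had no count while Runx3 had 146, 211 and 80, so per base Runx3 was at least 12-fold higher.

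Of 25 genes of T cell receptor signalling, 6 held a feature each. Both pairs tested were called, where 79.5% of all nested pairs tested were. Gm37520, a TEC in the first intron of Prkcq (protein kinase C theta), had 209, 29 and 75 counts against 937, 1527 and 378. In raw counts replicate 1 stood far above the others, and the shares were 18.2%, 1.86% and 16.6% (chi-square, adjusted p = 3.87e-48). Gm15602, a processed pseudogene in an intron near the end of Ptpn22, a phosphatase that restrains the receptor, had 69, 43 and 88 counts against 387, 490 and 143. It was above Ptpn22 per base in every library, by 2.60-, 1.28- and 8.97-fold. Gm16337 in Pag1 had 12, 10 and 2 counts, Gm18255 in Stim1 9, 6 and 2, Gm27956 in Nfatc3 1, 1 and 2, and 4930599N24Rik in Ppp3ca none.

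Genes of other cells gave no counted feature. Of 11 B cell genes, Pax5 and Ebf1 held a feature each, with no count on feature or host, and Ms4a1 was itself an intronic feature with no count. None of 10 myeloid or 8 NK cell genes held a feature. The NK cell list had 107, 145 and 39 counts with 2 genes at 0. The part of such cells in the counts of the features was not tested.

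**Figure D4:**
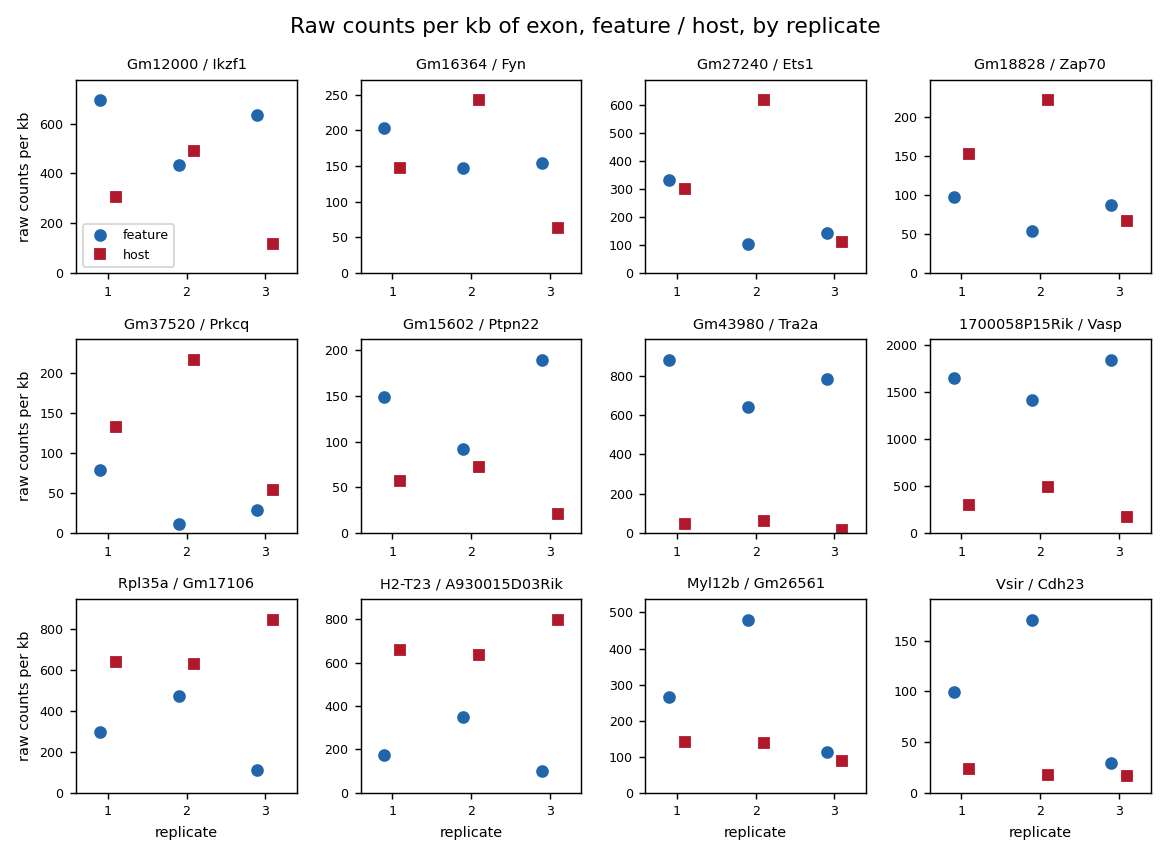
Raw counts per kb of exon (vertical, from 0, own scale in each panel) of 12 intronic features (circles) and their hosts (squares) in replicates 1, 2 and 3, with no error bars because each point is 1 library. In the upper and middle panels the protein-coding hosts are highest in replicate 2 and lowest in replicate 3, while in the bottom panels the features Rpl35a, H2-T23, Myl12b and Vsir show that order.

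Protein-coding features inside noncoding hosts showed the reverse arrangement. Rpl35a, a protein of the large ribosomal subunit, had 1042, 1666 and 387 counts, and its host Gm17106, a processed transcript, had 292, 289 and 387. The feature took 78.1%, 85.2% and 50% of the pair (chi-square, adjusted p = 2.71e-82). In raw counts, which carry the depth of each library, the host varied less than the feature. Which of them varied less after scaling was not tested. H2-T23, which encodes the nonclassical MHC molecule Qa-1, had 503, 1008 and 295 counts against 729, 708 and 885 on its antisense host A930015D03Rik, or 40.8%, 58.7% and 25% (chi-square, adjusted p = 7.37e-71). Myl12b and Myl12a, regulatory light chains of nonmuscle myosin that lie side by side in Gm26561, had 453, 820 and 192 counts and 437, 666 and 198. Gm26561 had 200, 195 and 125. Setd1b, a histone H3 lysine methyltransferase, had 441, 744 and 198 counts against 22, 12 and 18 on Gm26745.

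Gm26904, a long intergenic noncoding RNA named here after its values were seen, held 7 features of 60 or more counts, Cnpy3, Cul9, Klc4, Klhdc3, Rpl7l1, Rrp36 and Srf. Their log2 ratios of replicate 3 to replicate 2 ran from -2.53 to -1.60, while the host, with 516, 579 and 582 counts, stood at 0.01. Srf, a transcription factor of the actin response, was the most counted of them with 204, 325 and 107.

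Where both genes were protein coding, both arrangements were found. Fndc9 in Cyfip2, a part of the WAVE actin-regulating complex, had 423, 175 and 368 counts against 576, 1023 and 218, with 42.3%, 14.6% and 62.8% of the pair (chi-square, adjusted p = 3.30e-95). Clic3 had 517, 384 and 534 counts in Paxx, a factor of DNA end joining, with 54, 121 and 20. Vasn had 2004, 1642 and 1459 counts in Coro7, with 271, 447 and 105, although 160 of its exonic bases are shared with a same-strand gene. The log2 ratios of replicate 3 to replicate 2 were 1.07 for Fndc9, 0.48 for Clic3 and -0.17 for Vasn, against -2.23, -2.57 and -2.08 for their hosts. Gmfg in Samd4b, with 428, 682 and 182 counts, and 9930111J21Rik2 in Olfr56, with 443, 701 and 193, stood at -1.90 and -1.86. Vsir, the inhibitory receptor VISTA, went the other way, with 499, 855 and 148 counts against 403, 303 and 275 on the cadherin gene Cdh23 (chi-square, adjusted p = 1.82e-45).

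In some pairs no difference in the share was found, which does not show that the share was stable. Cd27, a costimulatory receptor of the TNF receptor family, had 1131, 1687 and 786 counts inside Vamp1, a vesicle fusion protein with 427, 706 and 300, although 129 of its exonic bases are shared with a same-strand gene. Its share of 72.6%, 70.5% and 72.4% did not pass the test (chi-square, adjusted p = 0.317). Tapbpl, which edits peptides on MHC class I and lies in the same host, had 666, 721 and 550 counts, and its share of 60.9%, 50.5% and 64.7% did (chi-square, adjusted p = 1.86e-11). The largest p of all was at Foxred1 in Srpr, with 59, 99 and 22 counts against 176, 285 and 65 and shares of 25.1%, 25.8% and 25.3% (chi-square, adjusted p = 0.982). Gm12867 in the glucose transporter gene Slc2a1 (25.7%, 24.8% and 23.9%), Filip1l in Cmss1 (96.9%, 97.2% and 97.4%), Gm44623 in Pstk (3.39%, 3.29% and 3.67%) and 8430422M14Rik in Gm15952 (6.96%, 6.54% and 5.26%) came next, with adjusted p from 0.816 to 0.965 by the same chi-square test. Counts were low in some, with 12, 14 and 5 on Cmss1 and 11, 7 and 9 on 8430422M14Rik, so a difference could be missed.

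Position within the host was described for the 955 long noncoding features in protein-coding hosts, of which 242 had a count in all libraries. Those in the last 25% of the host's span, counted from its 5′ end, had a pooled level of 16.8, 12.9 and 14.4 counts per kb, and those in the first 25% 12.4, 7.61 and 8.90. The mean log2 ratio of these levels was 0.64, and it was 0.32 without 1700058P15Rik and 0.12 for features of 500 or more bases. In the last 25% the feature was above its host in all libraries in 28 of 84 pairs, and in the first in 13 of 98. The share of the pair's counts was largest in replicate 3 in 35 of 36 called pairs of the last 25%, where 40 were tested, and in none in replicate 1. Of all nested pairs tested, 61.6% were called with it in replicate 3 and 8.68% in replicate 1. In the preceding stretches of 25% each, replicate 1 had the largest share in 9 of 26, 9 of 21 and 12 of 26 called pairs. Replicate 3 had it in 17, 12 and 13 of these, where 32, 31 and 33 pairs were tested. This difference by position was not tested.

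Neighbours on the same strand went with higher detection. Of the 726 features with a same-strand gene within 5 kb, 29.8% had a count in all libraries, against 22.2% of the 2302 without. Only 66 shared exonic bases with a same-strand gene. Features with such a gene within 5 kb were also longer, with a median of 931.5 bases against 701. The part of length in their detection was not tested. Features in the first host intron were counted in all libraries in 20.6% of 845, and those in later introns in 25.4% of 1954.

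The intronic features were then set against the 331 features whose exonic bases lay 90% or more within exons of an other-strand gene, and against the 19840 with no other-strand gene within 5 kb. Long noncoding intronic features lay between these classes. A count in all libraries was found for 22.5% of them, for 67.6% of long noncoding features in other-strand exons and for 5.61% of those with no other-strand gene near. Among those with a count in all libraries, the median level was 20.5, 10.4 and 9.05 counts per kb in introns, 430, 369 and 406 in exons and 5.17, 6.19 and 2.72 with no other-strand gene near.

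The long noncoding differences held their direction in every library. Among long noncoding features counted in all libraries, the median level in introns was below that in exons by a mean log2 difference of -5.01 ± 0.56 (SD, n = 3 libraries), and above that of features away from other-strand genes by 1.49 ± 0.65. Each gave an exact two-sided sign-flip p of 0.25, the smallest that 3 libraries allow. Protein-coding intronic features differed from protein-coding features away from other-strand genes by -0.11 ± 0.27 (exact sign-flip p = 0.75) and pseudogenes by 0.40 ± 0.51 (exact sign-flip p = 0.50), with a sign that changed between libraries in both. Over all kinds the difference was 0.25, -0.95 and 0.63.

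The log2 ratio of replicate 3 to replicate 2 had a median of -0.26 in the intronic features, 0.12 in 160 features in exons and -2.05 in 2471 away from other-strand genes. For replicate 1 to replicate 2 the medians were 0.12, 0.07 and -0.64, so here the intronic features had the highest value. The classes differ in make-up, since 2355 of the 2471 features away from other-strand genes were protein coding, against 120 of 285 intronic ones. Within a kind the median log2 ratio of replicate 3 to replicate 2 was -1.73 in protein-coding intronic features and -2.06 in those away from other-strand genes. For long noncoding features it was 0.20 and -0.90, and for pseudogenes 0.01 and -1.13.

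At 5 hosts an intronic feature and an exon-nested feature of 20 or more counts could be compared within the same gene. Rfx7 held the pseudogene Gm18014 in an intron, with 43, 27 and 34 counts, and the antisense gene Gm27232 across its exons, with 1316, 1171 and 1658. Xrn1, an RNA exonuclease, held Gm28085 with 50, 23 and 26 and C78334 with 366, 266 and 380. In Rnf123 the protein-coding Amigo3 had 489, 452 and 350 counts and Gm20529 had 809, 549 and 694 on far fewer bases. Per base the intronic feature was the lower in all 3 libraries at all 5 hosts, by log2 differences from -6.06 to -1.96. The other hosts were Dleu2 and Pou6f1.

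Pseudogenes are close copies of other genes, and the counting command held no option for fragments that map to several places, so their values are uncertain. Rpl14-ps1, in an intron of the channel gene Trpm4 at chr7:45324965-45325617 (mm10, plus strand), had 289, 485 and 184 counts and matched the Rpl14 transcript at 649 of 653 aligned bases (99.4%). Bases 368 to 567 of the M21 transcript are shown because they hold all 4 differences, in capitals.
Rpl14-ps1: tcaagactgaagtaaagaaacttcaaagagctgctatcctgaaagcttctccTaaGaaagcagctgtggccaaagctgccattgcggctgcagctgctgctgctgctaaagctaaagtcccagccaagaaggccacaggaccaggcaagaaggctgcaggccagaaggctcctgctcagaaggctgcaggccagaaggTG

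Rpl14 had 2199, 3207 and 1004 counts, and its log2 ratio of replicate 3 to replicate 2 was -1.67, against -1.40 for Rpl14-ps1 and -1.28 for the host Trpm4. Hmgb1-ps8, 96.4% identical to the Hmgb1 transcript, had 85, 102 and 36 counts and a log2 ratio of -1.49, against -1.89 for Hmgb1. In these pairs the pseudogene and the source gene had the same order of libraries. Rps12-ps9, 99.5% identical to Rps12, had 32, 39 and 42 counts, while Rps12 had 1608, 2726 and 725, so its order differed from that of the source gene. Ccnb2-ps, 87.6% identical over the aligned part, had 232, 214 and 274 counts where Ccnb2, a mitotic cyclin, had 1, 3 and 0.

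Features next to the length limit of 200 bases had no count. Those just inside it, Gm22053 at 200 bases and Gm14469 and Gm27545 at 202, were at 0 in every library, and so were those just outside, Gm27585 and Gm35713 at 199 bases and Gm15615 at 198.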

How the data were processed

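The deposited values are raw fragment counts for each gene. The authors ran featureCounts 1.4.6-p4 on GENCODE M13 exons, per the file headers, in mm10, per the labels. The command took paired fragments with both ends mapped and strand setting 1, per the file headers. It held no option for fragments that map to several places or fall on several genes. For the aligner version and kit, nothing was stated in the labels or headers.

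The features were found from the deposited coordinates with bedtools 2.31.1. The features and lists were chosen with earlier results of these data known. GENCODE M21 named 50376 of 50600 features, and exons equal in M21 were found for 2898 of the 3028 intronic features. No genome sequence was used. Library sizes came from edgeR 4.0.16 (TMM, filterByExpr) and DESeq2 1.42.0, and tests from scipy 1.17.1, both tested on simulated data. Log2 ratios between libraries used raw counts + 0.5. Intervals and the floor of 3 counts cover counting error only. The libraries held 2510319 to 4305077 counts. With 1 group no conditions were compared.

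Named features were the 20 most counted, the 10 with the highest and 10 with the lowest ratio to the host, the 5 smallest and 5 largest split-test p, those in listed hosts and 6 at the length limit. Most of these are printed, and 1 is not reported here. Others named for a host they share with an exon-nested feature, or as pseudogenes, were chosen after their values were seen. Alternatives covered host choice, count and length minimums, scaling, the error model and leaving out each library.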

Additional observations from a re-analysis of the deposited data

How the results depend on the processing

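Leaving out each library moved most results where replicate 2 was dropped. The share of pairs with the feature higher per base in all libraries was 17.8% to 26.3%, and the mean median log2 ratio to the host was -0.89 to 0.025, with the sign turned without replicate 2. Without replicates 1, 2 and 3 in turn, 233, 145 and 154 features were called between libraries. These were 76.1%, 47.4% and 50.3% of those tested, against 62.3%, 48.3% and 31.1% of all features. In the same order the split pairs numbered 224, 165 and 272. These were 73.9%, 41.9% and 57.1% of those tested, against 78.4%, 51.9% and 56.6% of all nested pairs. The share of features with a count in all libraries was 24.5% to 29.9%. The median log2 ratio of long noncoding minus protein-coding features was 0.65 to 1.93, and that of intronic features minus those away from other-strand genes 0.74 to 1.79 (1.93 and 1.79 with all libraries), with replicate 1 in place of replicate 2 giving the lower values. Of the other settings, no filter gave 510 features called between libraries (39.1%, against 40.1% of all features) and the negative binomial model 25 (8.17%, against 3.79%), where 241 were called before. An expected count of 1 gave 448 split pairs (65.4%, against 68.1% of all) in place of 246. The log2 level in the last over the first 25% of the host was 0.12 at 500 or more bases and 0.32 without 1700058P15Rik, a setting added after the data were seen, against 0.64. Total counts as library sizes gave 232 called features, within 1.5 times the 241, but turned the comparison with all features (75.8% against 82.5%), as did leaving out replicate 2 (47.4% against 48.3%). Host choice, other count minimums and same-strand overlap kept the direction of each result they were applied to, and the cause of the moves was not tested. No paired analysis was possible because the series holds a single group. The depth leaves 1021 features with 1 to 59 counts.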
